A study of Homo sapiens with 12 samples.

Results

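Antisense genes are named with -AS and a digit, in most cases after the symbol of a protein-coding neighbour. Of 57820 genes in the deposited tables, 1188 had such a symbol, and 216 of these (18.2%) reached a mean of at least 1 CPM (counts per 1000000 counts of the library) over the 8 poly(A) libraries. Those 216 genes, chosen by that level, are described here. No count fell on 333 of the 1188 in any poly(A) library. Just inside the limit lay RGMB-AS1 at 1.027 and KCTD21-AS1 at 1.029 CPM, and just outside it BCDIN3D-AS1 at 0.9854 and STK4-AS1 at 0.9704 CPM. The mean was taken over treated and control libraries alike: 193 of the 216 reached 1 CPM in siCtrl cells, 206 in WT cells, 178 in all 4 poly(A) groups, and 5 in neither control group. GENCODE 29 lists 150 of them as antisense, 31 as processed transcripts and 29 as lincRNAs, with 2 bidirectional promoter RNAs and 3 transcribed pseudogenes. One, NCBP2-AS2, is annotated as protein coding, so the group is not noncoding throughout.

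All 12 libraries came from T47D-MTVL, a luminal, hormone-responsive breast cancer line with an integrated luciferase reporter driven by the MMTV promoter, grown in charcoal-treated serum without progestin. Each of 6 groups had 2 libraries. Poly(A) RNA was taken after a control siRNA (siCtrl) or an siRNA to PADI2 (siPADI2). It was also taken from cells expressing HA-tagged RNA polymerase II (RNAP2), wild type (WT) or R1810A, a form with an arginine of the C-terminal domain replaced by alanine. Both forms resist alpha-amanitin, which stops the endogenous polymerase. Both were expressed for 24 hours, then kept in 6 µg/ml alpha-amanitin for 12 hours. Chromatin-associated RNA came from siCtrl and siPADI2 cells. The enzyme PADI2 converts arginine in proteins to citrulline.

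Antisense RNAs are transcribed by RNAP2 from the strand opposite a named gene. Many start at the same promoter region as that gene and run the other way, others start inside it or beyond its end and run back across it. Most are spliced poorly, stay in the nucleus and are degraded there by the nuclear exosome, which its adaptor complexes bring to the RNA. A few are stable and abundant, and some bind or regulate their neighbour.

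Poly(A) libraries held 44318629 to 132764704 counts and chromatin libraries 2720080 to 7040541. The siRNA target PADI2 stood at 24.0 and 22.6 CPM after siCtrl and at 1.83 and 1.88 CPM after siPADI2 in poly(A) RNA. PADI2 was low as well under the label R1810A (3.13 and 2.35 CPM, against 48.9 and 50.7 CPM in WT), for which no PADI2 siRNA is labelled, so every direction below rests on that label as it stands. Luminal markers (ESR1, PGR, GATA3, FOXA1, KRT8, KRT18, KRT19 and CDH1) were present in every library, but their sum was lower in treated ones: in poly(A) RNA it was 10477 and 9332 CPM in siCtrl libraries against 6633 and 6255 CPM in siPADI2 libraries, and 9573 and 10249 CPM in WT against 6632 and 7475 CPM in the libraries labelled R1810A. In chromatin RNA they summed to 2192 and 2381 CPM in siCtrl libraries and 1604 and 1161 CPM in siPADI2 libraries. In poly(A) RNA the fall in the sum was not shared by every marker. ESR1, PGR, GATA3, KRT8 and KRT19 were lower in both treated groups. After siPADI2 FOXA1 was lower too, but KRT18 and CDH1 overlapped their siCtrl levels. In the libraries labelled R1810A KRT18 was lower, FOXA1 overlapped its WT levels and CDH1 was higher than in WT. The part of these marker changes in the results below was not tested. Immune markers (PTPRC, CD3E, CD68) summed to 0.023 to 0.098 CPM in poly(A) RNA but to 40.6 to 66.2 CPM in chromatin RNA. The endothelial marker CDH5 had at most 0.054 CPM in poly(A) RNA and 6.07 to 17.3 CPM in chromatin RNA, and the basal and mesenchymal markers (KRT5, KRT14, TP63, VIM, ZEB1) 3.8 to 11.5 and 93.3 to 148 CPM. KRT5 was at 0 in 7 of the 8 poly(A) libraries. The fibroblast markers COL1A1 and COL1A2 summed to 42.5 to 72.9 CPM in poly(A) RNA, nearly all of it COL1A1, and in chromatin RNA to 95.7 and 119 CPM in siCtrl and 57.5 and 72.4 CPM in siPADI2 libraries. In bulk RNA, fewer cells of a kind and less RNA per cell cannot be told apart.

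By the gene coordinates of the deposited tables (hg19), 210 antisense genes had their named partner in the tables, on the opposite strand and protein coding. Of these, 84 were head-to-head, with 5′ ends within 1000 bases of each other. Another 100 overlapped an exon of the partner, 21 overlapped only its span, and 5 did not overlap it. No gene with the name before -AS was found for 6, such as HOXC-AS2, which is named after a gene cluster. In all, 153 shared at least 1 exonic base with the partner, so that only the strand of a read tells the genes apart there. The RefSeq promoter windows (GRCh38.p14, 250 bases before to 50 after a start, 300 in all) covered 155 of the antisense genes. Of 136 pairs with a window for each gene, 45 had overlapping windows, with 49 to 293 shared bases (median 203).

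The windows below are those of genes on which the results turn. They read 5′ to 3′ on each gene's own strand, and capitals mark CCAAT or its reverse complement ATTGG, a common promoter motif. GATA3-AS1 (chr10:8053400-8053699, minus strand) and GATA3 (chr10:8053391-8053690, plus strand) are shown together because they share 291 bases, read in opposite directions, and both fell in poly(A) RNA in both comparisons.
GATA3-AS1: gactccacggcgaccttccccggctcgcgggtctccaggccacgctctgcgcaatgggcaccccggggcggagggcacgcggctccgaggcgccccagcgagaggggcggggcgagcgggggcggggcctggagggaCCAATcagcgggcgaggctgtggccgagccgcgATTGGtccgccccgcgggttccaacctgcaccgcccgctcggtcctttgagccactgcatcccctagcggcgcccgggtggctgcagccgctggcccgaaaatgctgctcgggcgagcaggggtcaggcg
GATA3: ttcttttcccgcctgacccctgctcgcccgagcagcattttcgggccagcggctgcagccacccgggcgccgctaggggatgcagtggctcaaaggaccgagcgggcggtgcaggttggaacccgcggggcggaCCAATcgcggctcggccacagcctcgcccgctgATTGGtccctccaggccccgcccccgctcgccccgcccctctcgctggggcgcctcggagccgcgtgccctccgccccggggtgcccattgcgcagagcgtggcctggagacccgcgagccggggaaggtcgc
TPT1-AS1 (chr13:45341095-45341394, plus strand) also shares its promoter region with its partner (261 bases), but the pair moved in opposite directions after siPADI2. FBXL19-AS1 (chr16:30923220-30923519, minus strand) fell in the libraries labelled R1810A, ARHGEF26-AS1 (chr3:154121161-154121460, minus strand) rose in chromatin RNA and LURAP1L-AS1 (chr9:12814340-12814639, minus strand) had the largest fall after siPADI2.
TPT1-AS1: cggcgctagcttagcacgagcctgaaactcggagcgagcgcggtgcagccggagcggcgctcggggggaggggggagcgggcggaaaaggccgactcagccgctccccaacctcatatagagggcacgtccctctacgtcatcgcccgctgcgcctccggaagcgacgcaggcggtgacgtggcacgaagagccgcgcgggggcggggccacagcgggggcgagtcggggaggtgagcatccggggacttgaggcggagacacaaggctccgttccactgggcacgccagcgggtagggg
FBXL19-AS1: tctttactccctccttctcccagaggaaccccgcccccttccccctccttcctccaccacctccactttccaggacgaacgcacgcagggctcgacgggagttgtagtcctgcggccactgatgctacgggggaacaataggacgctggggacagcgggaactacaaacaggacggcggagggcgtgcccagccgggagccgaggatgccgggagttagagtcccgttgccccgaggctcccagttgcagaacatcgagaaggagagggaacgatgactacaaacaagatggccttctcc
ARHGEF26-AS1: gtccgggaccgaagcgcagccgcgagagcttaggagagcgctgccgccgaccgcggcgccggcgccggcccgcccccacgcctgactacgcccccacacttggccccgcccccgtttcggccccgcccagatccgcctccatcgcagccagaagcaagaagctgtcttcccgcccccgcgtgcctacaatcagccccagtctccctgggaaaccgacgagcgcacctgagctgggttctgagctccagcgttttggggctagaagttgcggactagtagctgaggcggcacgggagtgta
LURAP1L-AS1: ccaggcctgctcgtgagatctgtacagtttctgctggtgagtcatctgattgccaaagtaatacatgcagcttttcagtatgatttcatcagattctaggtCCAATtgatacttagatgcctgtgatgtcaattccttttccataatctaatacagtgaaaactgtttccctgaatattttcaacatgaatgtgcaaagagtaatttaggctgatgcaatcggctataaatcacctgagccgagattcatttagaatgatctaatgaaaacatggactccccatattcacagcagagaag
The first 5 of these windows are rich in GC (62.0% to 75.7%), with 20 to 38 CpG dinucleotides, whereas the LURAP1L-AS1 window has 39.0% GC and 3 CpG. The LURAP1L-AS1 window is thus unlike the typical one: the 195 windows of antisense genes had a median of 25 CpG, against 14 in all 35116 RefSeq windows. CCAAT, on either strand, was found in 31.3% of the antisense windows and 34.6% of all windows. TATAAA was found in 6.2% and 11.5%. AGGTCA, the core letters of many nuclear receptor sites, was found in 9.7% and 13.8%. None of the 3 motifs contains another, though neighbouring matches can share end letters.

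The antisense genes were mostly weakly expressed, with a median of 3.36 CPM and 44 at 10 CPM or more. Per kilobase of exon their median was 1.49 CPM, against 6.00 for their partners. Over 206 pairs the antisense level per kilobase had a median of 25.1% of the sense level, and in 61 pairs the antisense gene was the higher one. The highest mean levels were those of FGD5-AS1 (204 CPM), OIP5-AS1 (186 CPM; known as Cyrano, a conserved RNA that takes part in microRNA decay), LRRC75A-AS1 (120 CPM, now named SNHG29, a host gene of small nucleolar RNAs), DSCAM-AS1 (84.8 CPM), PSMA3-AS1 (44.6 CPM) and ST8SIA6-AS1 (42.3 CPM). FGD5-AS1 (chromosome 3, 14961854 to 14989931, minus strand) had 39.7 CPM per kilobase where FGD5, a guanine nucleotide exchange factor of CDC42, had 0.111. GATA3-AS1 was the reverse case, with 3.68 CPM per kilobase beside 193 for GATA3, the transcription factor of luminal breast cells. Antisense counts were under 1% of the partner's count for 14 genes, 10 of which share exonic bases with it. TPT1-AS1, at 0.275% of the count of TPT1, is one of them. The part of reads assigned to the wrong strand in these values was not tested.

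After siPADI2 in poly(A) RNA, 70 of the 216 antisense genes rose and 61 fell (adjusted p under 0.05 in edgeR's quasi-likelihood test over all genes tested). Of all 18720 genes tested, 28.8% rose and 27.9% fell, so the shares of antisense genes, 32.4% and 28.2%, lay close to the background. Their median log2 fold change was 0.03, against 0.01 for all genes tested. With total counts as library sizes, which moves the median of all genes by 0.18 on the log2 scale, 84 rose and 45 fell (67.0% of all calls were then higher, against 50.8%).

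The 3 largest falls were in genes whose partners changed less or in the other direction. LURAP1L-AS1 (chromosome 9, 12700100 to 12814344, minus strand) stood at 2.71 and 3.25 CPM after siCtrl and at 0.421 and 0.453 CPM after siPADI2. Both siPADI2 libraries lay far below both controls (log2 fold change −2.78, SE 0.204, edgeR adjusted p = 8.16e-15), while LURAP1L, whose span it crosses, fell by 0.77 on the log2 scale. ZNF350-AS1 stood at 5.66 and 5.30 CPM, then at 0.918 and 0.942 CPM (−2.55, SE 0.163, edgeR adjusted p = 1.32e-16). Its partner ZNF350, a zinc finger repressor that binds BRCA1, fell by 0.68. RERG-AS1 lies within RERG, a Ras-like gene named for its regulation by estrogen, and fell from 3.26 and 3.75 CPM to 0.758 and 0.679 CPM (−2.30, SE 0.184). RERG itself rose from 45.9 and 50.9 CPM to 73.4 and 69.9 CPM (log2 fold change 0.56). The other large falls were FAM198B-AS1 (−1.46, with FAM198B at −2.07), ZSCAN16-AS1 (−1.43) and HOXC-AS2 of the HOXC homeobox cluster (−1.42).

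The largest rise was that of SEPT4-AS1 (chromosome 17, 56597198 to 56634338, plus strand), from 0.504 and 0.523 CPM to 2.70 and 2.37 CPM (log2 fold change 2.29, SE 0.211, edgeR adjusted p = 4.41e-12). SEPT4, a septin gene, fell by 1.38 but was barely expressed, at 0.384 and 0.442 CPM after siCtrl. ADAMTS19-AS1, head-to-head with a metalloprotease gene, rose by 1.72 and ADAMTS19 by 0.98. RAP2C-AS1 rose by 1.62 and RAP2C, a Ras-like GTPase, by 1.15. LMCD1-AS1 rose by 1.69, ZBED3-AS1 by 1.48 and INKA2-AS1 by 1.4. These 6 and the 6 largest falls stayed past the test in every alternative fitted. Among the genes chosen whatever their values, GATA3-AS1 fell (−1.31), EPB41L4A-AS1 rose (1.02), FGD5-AS1 fell (−0.52) and OIP5-AS1 rose (0.33). GABPB1-AS1 also rose (0.37, edgeR adjusted p = 0.0416), a call lost in 6 of 11 alternatives.

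**Figure D1:**
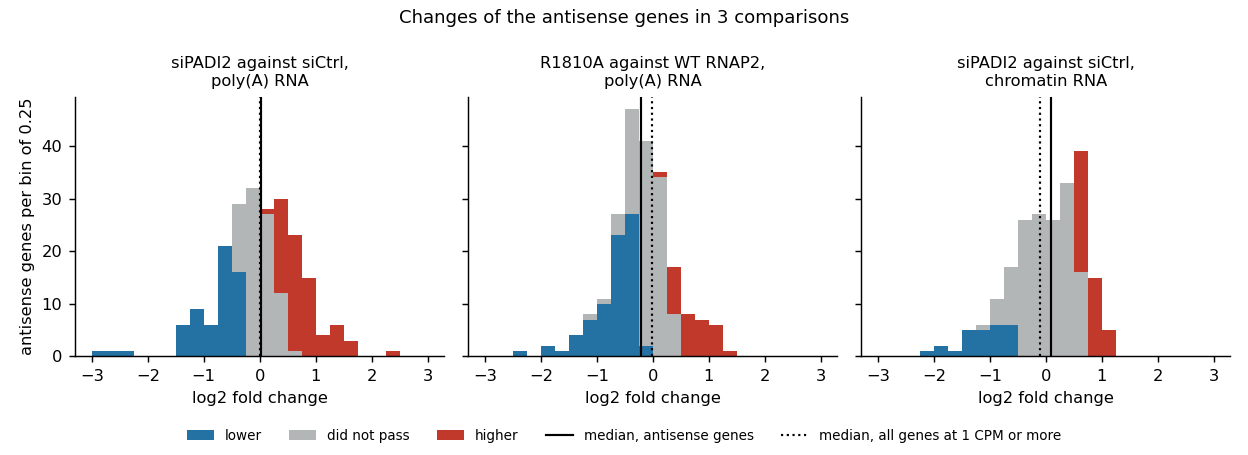
Number of antisense genes (vertical axis) by log2 fold change (horizontal axis, bins of 0.25) in the 3 comparisons, coloured by the edgeR call. The solid line is the median of the antisense genes (0.03, −0.21 and 0.10) and the dotted line that of all genes at 1 CPM or more (0.01, −0.01 and −0.11).

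In the libraries labelled R1810A, more antisense genes were lower than higher than in WT: 77 fell and 32 rose of 216, or 35.6% and 14.8%. Of all 19202 genes tested, 24.3% fell and 22.6% rose. The other long noncoding genes at 1 CPM or more had a like split, with 30.6% lower and 14.8% higher. The median log2 fold change was −0.21 over the antisense genes, −0.19 over the other long noncoding genes and −0.02 over all genes tested. The partners stood between these, with 60 lower and 41 higher of 195 and a median of −0.04.

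RNF217-AS1 (chromosome 6, 125230239 to 125284185, minus strand) fell from 2.90 and 2.36 CPM in WT to 0.497 and 0.591 CPM in the libraries labelled R1810A (log2 fold change −2.27, SE 0.179, edgeR adjusted p = 3.67e-07). Its head-to-head partner RNF217, a ubiquitin ligase gene, moved far less (−0.28). YEATS2-AS1 fell from 3.73 and 3.25 to 0.994 and 0.899 CPM (−1.88, SE 0.147), while YEATS2, which encodes a reader of histone acylation, had −0.07 and did not pass (edgeR adjusted p = 0.408). EMC3-AS1 fell from 6.21 and 6.07 to 1.92 and 1.70 CPM (−1.76, SE 0.117). FBXL19-AS1, whose window is printed above, stood at 13.3 and 12.1 CPM in WT and at 4.46 and 4.48 CPM in the libraries labelled R1810A (−1.51, SE 0.0896, edgeR adjusted p = 2.93e-08). After siPADI2 it did not pass (−0.29, edgeR adjusted p = 0.0933), and the 2 effects differed by 1.19 (edgeR interaction test, adjusted p = 0.000747). RERG-AS1 (−1.39), MCM3AP-AS1 (−1.32) and GATA3-AS1 (−1.31) fell as well.

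DSCAM-AS1, a luminal breast cancer RNA known for its dependence on the estrogen receptor, had the largest rise. It stood at 46.0 and 39.8 CPM in WT and at 114 and 92.4 CPM in the libraries labelled R1810A (chromosome 21, 41755010 to 41757285, plus strand; log2 fold change 1.27, SE 0.147, edgeR adjusted p = 0.00476). Without the second WT library it had 1.19 and did not pass. Its host gene DSCAM, a cell adhesion molecule, rose from 3.15 and 3.02 to 12.5 and 13.6 CPM (2.08). After siPADI2, DSCAM rose by 1.93 but DSCAM-AS1 only by 0.23 (76.2 and 98.7 against 99.0 and 107 CPM, edgeR adjusted p = 0.0497), a call lost in 6 of 11 alternatives, with 0.06 when the first siCtrl library is left out. H1FX-AS1 (1.22), BHLHE40-AS1 (1.17), TMCC1-AS1 (1.17), SEPT4-AS1 (1.15) and AGAP2-AS1 (1.05) also rose.

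The poly(A) comparisons share no library. Of the 216 antisense genes, 72 passed in both, 25 of them higher in both, 43 lower in both and 4 in opposite directions. The same direction was thus found for 94.4%. Of 13568 genes at 1 CPM or more, 5532 passed in both. Of these, 2414 were higher in both, 2608 lower in both and 510 opposite, so 90.8% had the same direction. GATA3-AS1 illustrates the shared falls: 10.7 and 8.60 CPM after siCtrl, 3.8 and 3.91 after siPADI2, 14.5 and 13.5 in WT, and 6.20 and 5.07 in the libraries labelled R1810A. The effects of siPADI2 and R1810A differed for 62 antisense genes, with the siPADI2 effect higher for 41 and lower for 21 (edgeR interaction test). Over all genes the shares were 11.8% and 14.3%. Without the first WT library 30 differed, and without the second siCtrl library 36. LURAP1L-AS1 had the largest difference (−2.78, SE 0.291, edgeR adjusted p = 1.02e-05), with 1.05 and 0.884 CPM in WT and 1.08 and 0.807 CPM in the libraries labelled R1810A. ZNF350-AS1 followed (−2.41), and of the rises RAP2C-AS1 (1.35).

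**Figure D2:**
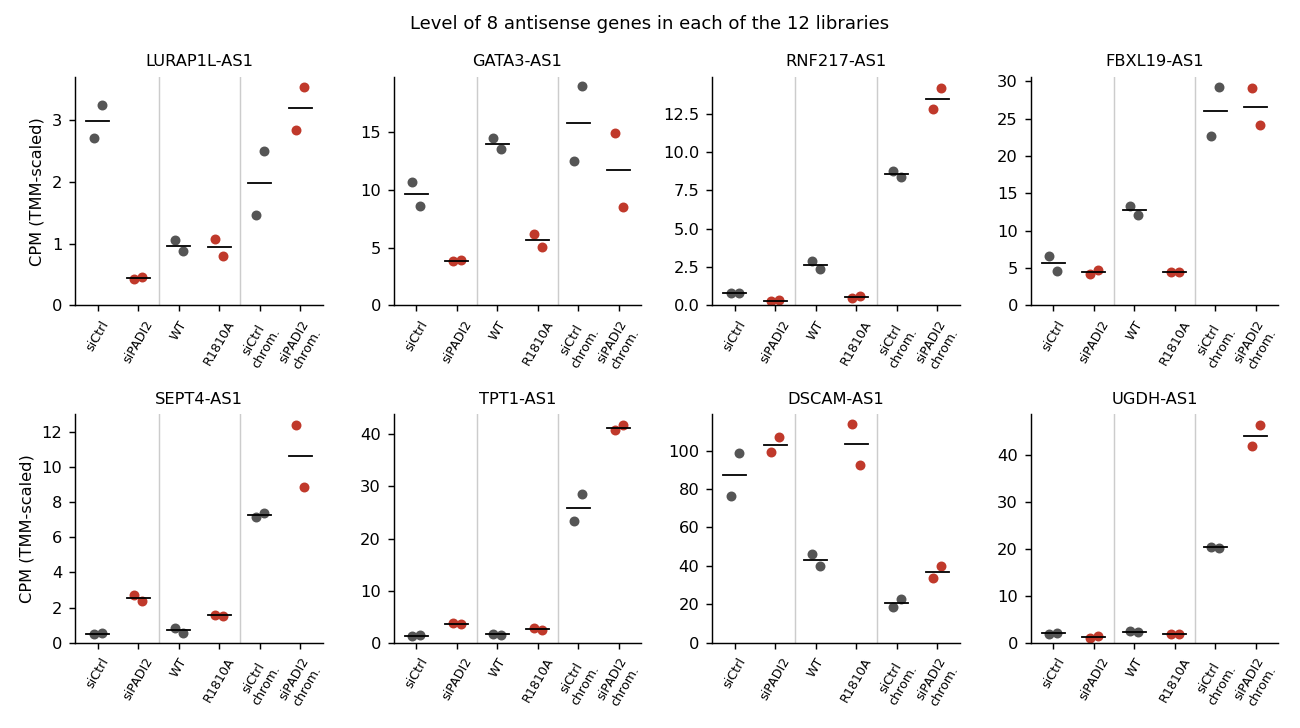
CPM (vertical axis, from 0) of 8 antisense genes in the 12 libraries, each point 1 library and each bar the mean of 2; grey points are siCtrl or WT, red points siPADI2 or R1810A, and grey lines part the 3 comparisons, which were scaled separately. LURAP1L-AS1 is at 0.421 and 0.453 CPM in the siPADI2 poly(A) libraries, below all other libraries, whereas GATA3-AS1 is low in both treated poly(A) groups.

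In chromatin RNA, 214 antisense genes had enough counts to be tested (not STX17-AS1 and RERG-AS1), and 43 rose and 26 fell after siPADI2. These are 20.1% and 12.1%, where all 33879 genes tested had 12.2% higher and 20.1% lower. The other long noncoding genes at 1 CPM or more had 15.3% higher and 10.2% lower, and the partners 12 higher and 53 lower of 206. The median count of an antisense gene was 88 in siCtrl and 38 in siPADI2 chromatin libraries. The counts of calls were fragile: 23, 19 or 21 rose without siCtrl library 1, siCtrl library 5 or siPADI2 library 2, and 12 or 15 fell without siCtrl library 5 or siPADI2 library 2. DESeq2 called 7 higher and 9 lower.

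The chromatin change of an antisense gene went with the GC content of its transcript. Pearson's r was −0.60 over the 214 genes and −0.64 over all genes at 1 CPM or more, given as a description, since all points share the same 4 libraries. Antisense genes that rose had a median GC of 43.9% and those that fell 56.6%. In the poly(A) comparisons r was −0.06 in both. After a GC correction, chosen after this trend was seen, 19 of the 43 stayed higher and 6 of the 26 stayed lower.

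**Figure D3:**
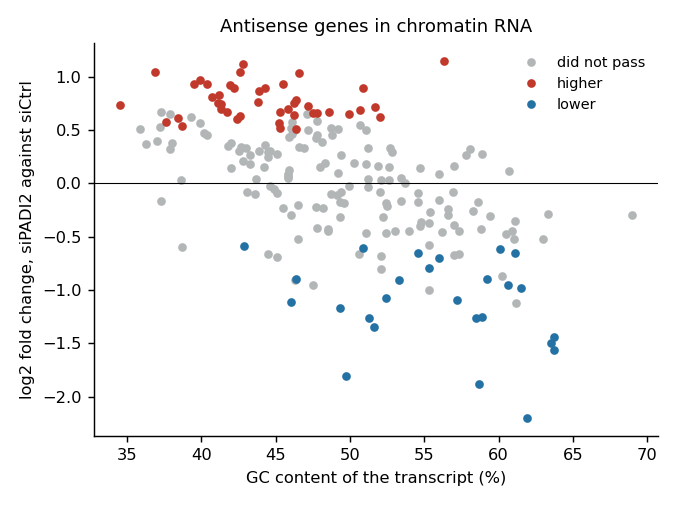
Log2 fold change in chromatin RNA after siPADI2 (vertical axis) against the GC content of the transcript in percent (horizontal axis) for the 214 antisense genes tested, coloured by the edgeR call. Genes called higher lie mostly at low GC (median 43.9%) and genes called lower at high GC (median 56.6%).

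Chromatin libraries also held reads on genes with none in poly(A) RNA. Over 9531 such silent genes of at least 500 exonic bases, the siCtrl chromatin level had a median of 1.68 CPM per kilobase and a 95th percentile of 6.78, beside a median of 4.45 for the antisense genes. Only 45 antisense genes exceeded that 95th percentile, among them 6 of the 43 that rose and 11 of the 26 that fell. The silent genes tested had a median log2 fold change of 0.30. The part of this background in the results was not tested.

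Of the 6 largest rises and 6 largest falls in chromatin RNA, 4 stayed past the test in every alternative, GC correction included. CCDC183-AS1 (chromosome 9, 139698379 to 139703300, minus strand) fell from 20.4 and 25.5 to 6.74 and 3.19 CPM (log2 fold change −2.20, SE 0.308, edgeR adjusted p = 9.53e-11). ELF3-AS1, which overlaps the gene of an epithelial ETS factor, fell from 12.3 and 10.2 to 3.19 and 3.19 CPM (−1.81, SE 0.403). At the depth of the siPADI2 libraries 3.19 CPM is only 9 reads. UGDH-AS1, head-to-head with the UDP-glucose dehydrogenase gene, rose from 20.4 and 20.2 to 41.9 and 46.4 CPM (1.12, SE 0.209, edgeR adjusted p = 2.22e-06). ARHGEF26-AS1, head-to-head with the guanine nucleotide exchange factor gene ARHGEF26, rose from 22.7 and 20.6 to 43.7 and 45.3 CPM (1.04, SE 0.207). Per kilobase, the siCtrl chromatin level of ARHGEF26-AS1 lay below the 95th percentile of the silent genes (6.78 CPM). In each of these 4, as in all 69 antisense genes called in chromatin RNA, the siPADI2 libraries lay wholly apart from the controls. The groups lay apart as well in all 131 and 109 antisense genes called in the poly(A) comparisons. With groups of 2 libraries, this separation therefore adds nothing to a call. FOXD2-AS1 (−1.88), SLC9A3-AS1 (−1.56), AGAP2-AS1 (−1.50) and VPS9D1-AS1 (−1.44) fell too, but had −1.04, −0.55, −0.49 and −0.44 after GC correction and no longer passed. OR2A1-AS1 (1.15), TMCC1-AS1 (1.04), KTN1-AS1 (1.03) and ZNF433-AS1 (0.97) rose and did not pass with DESeq2. OR2A1-AS1 lies among near-identical olfactory receptor copies, so its count is uncertain.

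Both siPADI2 comparisons together gave 17 antisense genes higher in poly(A) and chromatin RNA, 10 lower in both and 15 in opposite directions, or 7.94%, 4.67% and 7.01% of 214. Of the 17438 genes tested in both, 3.59%, 8.68% and 7.12% fell into these classes. With the GC correction in chromatin RNA, 8, 5 and 7 antisense genes did (3.74%, 2.34% and 3.27%), beside 2.23%, 4.32% and 3.22% of 16977 genes. The effect differed between the RNA kinds for 31 (edgeR interaction test), higher in chromatin for 9 and lower for 22. Over all genes the shares were 1.71% and 6.34%, and over genes at 1 CPM or more 2.9% and 15.1%, beside 4.2% and 10.2% here. That count is unstable: it was 16 or 17 without siPADI2 poly(A) library 1 or 2, and 54 to 63 without any other single library of the 8. LURAP1L-AS1 had the largest of these differences (3.28, SE 0.64, edgeR adjusted p = 2.41e-05), with chromatin levels of 1.46 and 2.50 CPM in siCtrl libraries against 2.84 and 3.54 CPM in siPADI2 libraries. Those siPADI2 levels are 8 and 10 reads, and the chromatin change of LURAP1L-AS1 itself did not pass (log2 fold change 0.67). Across the 3 comparisons, the antisense genes that rose in each included DSCAM-AS1, ENTPD1-AS1, IQCH-AS1, SEPT7-AS1, TMCC1-AS1, TPT1-AS1 and ZNF561-AS1. In each comparison 8 fell: CCDC183-AS1, ELF3-AS1, FGD5-AS1, HOXC-AS3, NOP14-AS1, RHPN1-AS1, USP27X-AS1 and YEATS2-AS1. Of all 17114 genes tested in the 3 comparisons, 2.14% rose and 5.66% fell in each, beside 3.74% and 3.74% of the 214 antisense genes. With the GC correction in chromatin RNA, TMCC1-AS1 and TPT1-AS1 were the only ones of the first list to pass in all 3, and HOXC-AS3, RHPN1-AS1 and USP27X-AS1 left the second. With that correction, 0.935% of the 214 antisense genes rose and 2.34% fell in each comparison, beside 1.18% and 3.05% of 16667 genes. The chromatin call of FGD5-AS1 was lost in 5 of 9 alternatives. These lists were read off after the values were seen, and 32 antisense genes passed in none of the 3 comparisons.

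The changes of antisense genes went only weakly with those of their partners. Chromatin changes also went with GC content (r −0.60 over the antisense genes), and its part in the chromatin pair results was not tested. After siPADI2 in poly(A) RNA, 195 pairs had both genes tested: 51 passed in the same direction (27 higher, 24 lower) and 34 in opposite directions. Pearson's r over the pairs was 0.18 and Spearman's coefficient 0.19, as a description, since both genes of a pair come from the same libraries. In the libraries labelled R1810A, 35.6% of all antisense genes and 30.8% of all partners fell. How many shared falls these shares alone would give was not tested. There, 35 of 197 pairs passed in the same direction (26 lower) and 19 in opposite directions, with coefficients of 0.20 (Pearson) and 0.17 (Spearman). In chromatin RNA these were 16 and 4 of 206, with coefficients of 0.29 and 0.28, and the 16 fell to 8, 1, 9 or 3 when siCtrl library 1, siCtrl library 5, siPADI2 library 1 or siPADI2 library 2 was left out.

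Pairs that share a promoter region moved together in some cases and apart in others. As a description, for the 84 head-to-head pairs r was 0.26 after siPADI2 and 0.32 in the libraries labelled R1810A in poly(A) RNA, and 0.07 over 83 pairs in chromatin RNA. Of 44 pairs with overlapping RefSeq windows, 10 passed in the same direction after siPADI2 and 9 in opposite directions. In the libraries labelled R1810A these were 9 and 1, and in chromatin RNA 4 and 2 of 45. Over the pairs with overlapping windows r was −0.08, 0.24 and 0.39 in the 3 comparisons, an order unlike that of the head-to-head pairs. GATA3 fell with GATA3-AS1, from 763 and 759 to 443 and 470 CPM after siPADI2 (log2 fold change −0.74) and from 853 and 860 to 444 and 471 CPM in the libraries labelled R1810A (−0.90). In chromatin RNA GATA3 fell (−0.76, edgeR adjusted p = 0.00953), whereas GATA3-AS1 had −0.43 and did not pass (edgeR adjusted p = 0.224). After the GC correction GATA3-AS1 had 0.43 and did not pass either (edgeR adjusted p = 0.295). Its direction in chromatin RNA is thus not settled.

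**Figure D4:**
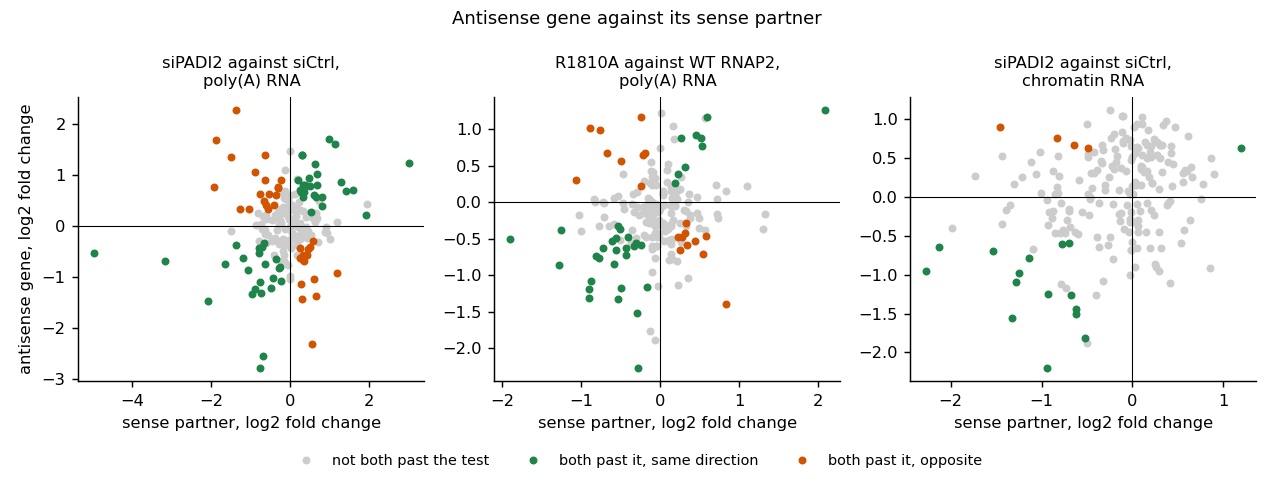
Log2 fold change of each antisense gene (vertical axis) against that of its sense partner (horizontal axis) in the 3 comparisons, each point 1 pair. After siPADI2 in poly(A) RNA the 51 green pairs, past the test in the same direction, and the 34 orange ones, in opposite directions, lie on all sides of the plot's centre.

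Of the 34 pairs in opposite directions after siPADI2, the 8 in which the smaller change was largest are given here, and 3 of these had a large change on each side. LMCD1-AS1 rose from 0.768 and 0.804 to 2.51 and 2.61 CPM, and LMCD1, a LIM domain cofactor of transcription, fell from 300 and 290 to 86.2 and 75.1 CPM (log2 fold changes 1.69 and −1.87). DGUOK-AS1 rose from 1.27 and 1.31 to 3.45 and 3.18 CPM, and DGUOK, the mitochondrial deoxyguanosine kinase, fell from 29.3 and 30.6 to 10.8 and 10.3 CPM (1.35 and −1.51). SEPT4-AS1 and SEPT4 were described above. In TPT1-AS1 and TPT1, which encodes the abundant translationally controlled tumour protein, the levels were 1.30 and 1.45 against 3.7 and 3.64 CPM for the antisense gene, and 956 and 969 against 650 and 583 CPM for TPT1 (1.4 and −0.64). SVIL-AS1 went the other way: it fell by 0.92 while SVIL, which encodes the actin-binding supervillin, rose by 1.18. MELTF-AS1 (1.07 against −0.88), MYLK-AS1 (0.78 against −1.92) and RNF217-AS1 (−1.36 against 0.66) moved against their partners too. All 8 antisense calls held in every alternative.

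Pairs in opposite directions were found in the libraries labelled R1810A as well. LMCD1-AS1 rose by 0.99 and LMCD1 fell by 0.76. DGUOK-AS1 rose from 2.07 and 2.31 to 4.31 and 4.57 CPM and DGUOK fell from 24.9 and 26.3 to 13.9 and 13.7 CPM (1.02 and −0.89). RERG-AS1 fell by 1.39 and RERG rose from 29.9 and 29.7 to 51.7 and 54.5 CPM (0.83). TTC28-AS1 (0.67 against −0.67), MAP3K14-AS1 (0.57 against −0.50), DHRS4-AS1 (−0.71 against 0.54) and TMEM44-AS1 (−0.46 against 0.58) also moved against their partners, as did FOXD2-AS1 (−0.53 against 0.44), a call lost in 8 of 11 alternatives. DHRS4 has near-identical neighbours, so its counts are uncertain. In chromatin RNA the opposite pairs were SLC2A1-AS1 (0.89, with the glucose transporter gene SLC2A1 at −1.46), RUNDC3A-AS1 (0.75 against −0.83), TPT1-AS1 (0.67 against −0.64) and PRKAR2A-AS1 (0.62 against −0.49), and each antisense call was lost in at least 1 alternative.

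In siCtrl cells, the level of each gene in chromatin RNA was set against that in poly(A) RNA. Of 216 antisense genes, 115 were higher and 41 lower in chromatin than in poly(A) RNA, where 69.7% of all 39603 genes tested were higher and 22.9% lower, most of them with little or no poly(A) RNA. Of the genes at 1 CPM or more, 15.9% were higher and 66.4% lower. The median log2 ratio was 0.79 for the antisense genes, 0.39 for the other long noncoding genes and −1.54 for protein-coding genes at 1 CPM or more. In 149 of 210 pairs the antisense gene had the higher ratio of the pair (median 0.81 against −1.35), and in 150 with total counts as library sizes. In poly(A) RNA, the denominator, antisense genes had a median of 1.49 CPM per kilobase and partners 6. In siCtrl chromatin RNA the medians were 4.45 and 5.81, beside 1.68 for the silent genes. The part of low poly(A) levels and of this background in the pair result was not tested. Fraction and library kit changed together in this comparison and cannot be told apart, and total counts move every ratio by 1.23, so the ratios are relative: with that scaling 171 are higher and 18 lower.

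The highest ratios were those of TM4SF19-AS1, at 1.02 and 1.28 CPM in poly(A) and 25.6 and 27.3 CPM in chromatin RNA (log2 ratio 4.51), KCTD21-AS1 (3.6), BHLHE40-AS1 (3.43), EXTL3-AS1 (3.32) and ZNF503-AS2 (3.20). KCTD21-AS1, BHLHE40-AS1 and EXTL3-AS1 lie close to 1 CPM in poly(A) RNA, near the limit of the choice. The lowest ratio was that of DSCAM-AS1, which had 92.2 and 166 CPM in poly(A) and 12.0 and 13.8 CPM in chromatin RNA (−3.32), SPINT1-AS1 had −2.80, ST8SIA6-AS1 −2.46, FAM198B-AS1 −2.35 and RERG-AS1 −2.28. FGD5-AS1 (−2.21), LRRC75A-AS1 (−2.0) and OIP5-AS1 (−1.94) were low as well. The poly(A) level is the denominator of the ratio and also chose the genes, so a link between abundance and a low ratio is built in.

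**Figure D5:**
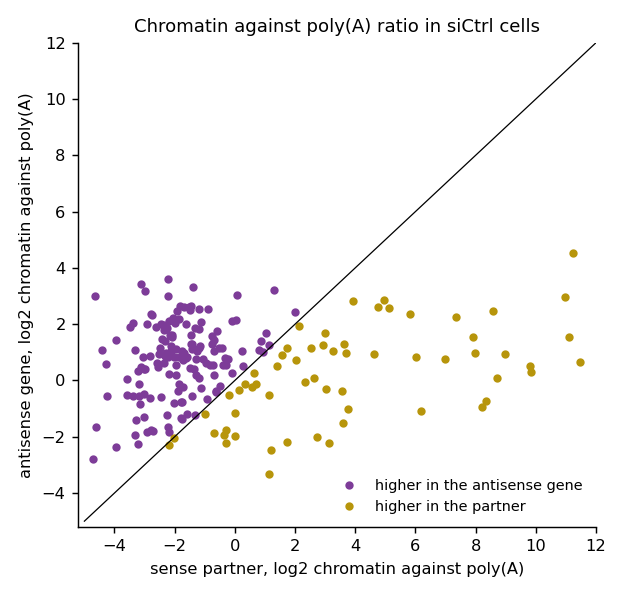
Log2 ratio of chromatin to poly(A) level in siCtrl cells for each antisense gene (vertical axis) and its sense partner (horizontal axis), each point 1 of 210 pairs and the line equality. The 149 purple points above the line are pairs in which the antisense gene has the higher ratio.

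Genes of the nuclear exosome and its adaptors, which degrade many antisense RNAs, changed in both directions. Of 23 such genes, 7 rose and 5 fell after siPADI2 in poly(A) RNA, with a median log2 fold change of −0.02. These shares, 30.4% and 21.7%, lie near the 28.8% and 27.9% of all genes. EXOSC6, a subunit of the exosome ring, rose by 0.64 and RBM7, an RNA-binding part of the NEXT adaptor, by 0.45. NCBP1, the large subunit of the nuclear cap-binding complex, fell from a mean of 55.4 to 26.8 CPM (−1.05) and MPHOSPH6, an exosome cofactor, by 0.72. In the libraries labelled R1810A, 2 rose (EXOSC7 by 0.21 and the exosome nuclease gene DIS3 by 0.18) and 5 fell, led by NCBP1 (−0.63) and ZCCHC8, another part of NEXT (−0.40), with a median of −0.07, where 22.6% and 24.3% of all genes rose and fell. In chromatin RNA 1 of the 23 rose, RBM7 by 0.50, and 2 fell, EXOSC5 (−1.36) and ZC3H18 (−0.57). These are 4.35% and 8.7%, where 12.2% and 20.1% of all genes tested rose and fell. EXOSC5 had only 9 and 13 reads in the siPADI2 chromatin libraries.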

How the data were processed

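RNA of 12 libraries in 6 groups of 2 was analysed; groups and replicate numbers come from the sample titles. The deposited values are raw fragment counts per gene. Per the file headers, the authors counted with featureCounts 1.5.1 (poly(A) RNA) or 1.4.6-p2 (chromatin RNA), strand option 2, over GENCODE 19 exons on hg19. Because counting was over exons, reads that lie only in introns are left out. The headers set no option for multi-mapping or overlapping reads, so near-identical copies and overlapping genes of the same strand are not fully counted. Trimmomatic and STAR are named in the submitters' processing notes. Poly(A) libraries were made with a stranded mRNA kit and chromatin libraries with a stranded total RNA kit with rRNA removal, per the labels' protocols.

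Symbols and biotypes were matched by gene identifier to GENCODE 29 (52338 of 57820 genes). GC content is that of the longest GENCODE 29 transcript and promoter windows from RefSeq (GRCh38.p14). Every comparison used a separate fit of its 4 libraries over all genes in edgeR 4.0.16 (R 4.3.3; TMM scaling, filterByExpr, robust quasi-likelihood F test, Benjamini-Hochberg adjustment, threshold 0.05); differences between effects were interaction contrasts over 8 libraries. CPM values are on the TMM-scaled library size of the fit, except the means that chose the genes, which use total counts. The SE is the log2 fold change divided by the square root of F. The fit was tested on simulated counts. Alternatives were total-count and RLE scaling, DESeq2 1.42.0, no filter, other CPM minimums, leaving out each library, a replicate block, a joint fit and a GC correction.

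Genes named are, per comparison, the 6 largest changes each way among those past the test and up to 8 against their partner, the 6 highest levels, the 5 highest and 5 lowest chromatin ratios (at least 10 chromatin counts), 5 genes regardless of value and the 2 largest changes each way of the decay genes. The antisense genes, lists and rules were chosen with earlier results of these data known. Whether libraries of 1 group stem from separate cultures is not stated in the labels; the p-values therefore reflect library-to-library spread, possibly technical. No pair of libraries agreed within sampling noise (chi-square per degree of freedom 3.55 to 91.7). An item that was left out of the named genes is not reported here.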

Additional observations from a re-analysis of the deposited data

Results flagged for a closer look

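The effects of siPADI2 and of the libraries labelled R1810A differed for 62 antisense genes (edgeR interaction test, Benjamini-Hochberg adjusted p under 0.05). The 4 that passed in both comparisons with opposite signs all differed. They were chosen by calls from the same libraries, so this outcome was nearly fixed in advance. WDFY3-AS2 rose after siPADI2 (0.68) and fell in the libraries labelled R1810A (−0.40), a difference of 1.05 on the log2 scale. PXN-AS1 had 0.34 and −0.32, a difference of 0.62. VPS9D1-AS1 had 0.48 and −0.76, a difference of 1.21. SNAI3-AS1 went the other way, with −0.62 and 0.30, a difference of −0.96.

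The effect of siPADI2 differed between chromatin and poly(A) RNA for 31 antisense genes, by the same test. Of the 15 called in opposite directions in the 2 kinds of RNA, 11 differed by this test. The 15 were chosen by calls from the same libraries, so the test adds little to those calls. Differences are given as chromatin minus poly(A). Lower in chromatin and higher in poly(A) RNA were AGAP2-AS1 (difference −2.55), MATN1-AS1 (−2.38), MELTF-AS1 (−2.22), VPS9D1-AS1 (−2.11), MAP3K14-AS1 (−2.05) and ZNF503-AS2 (−1.37). Higher in chromatin and lower in poly(A) RNA were UGDH-AS1 (1.68), SOX9-AS1 (1.43), MBNL1-AS1 (1.37), KCNMB2-AS1 (1.28) and ENTPD3-AS1 (1.18). Chromatin changes went with transcript GC content over all 214 antisense genes tested (r −0.60). With a GC correction none of the 6 genes lower in chromatin RNA passed there: AGAP2-AS1 had −0.49, MATN1-AS1 −0.39, MELTF-AS1 −0.01, VPS9D1-AS1 −0.44 and MAP3K14-AS1 −0.01, and ZNF503-AS2 turned to 0.30. SOX9-AS1, MBNL1-AS1 and ENTPD3-AS1 did not pass either, whereas UGDH-AS1 (0.80) and KCNMB2-AS1 (0.60) still did. The differences themselves were not tested with the correction.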

How the results depend on the processing

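Groups of 2 libraries limit every test, and the chromatin libraries, with 2720080 to 7040541 counts, are the least precise. For single named genes, 744 alternative values kept their direction and side of the threshold, 69 lost the call (44 of them in chromatin RNA), 6 gained one and none changed direction with a call. After siPADI2 in chromatin RNA, the 43 higher and 26 lower antisense genes became 7 and 9 with DESeq2, 25 and 7 with a GC correction, and 6 and 11 among genes above the silent ones; without a filter 28 were higher, and with total counts 16 were lower. The cause of these shifts was not tested. In chromatin against poly(A) RNA, 174 and 64 were higher with a minimum of 0.5 and 2 CPM, rules that change the number of genes to 285 and 155, and 18 were lower with total counts. The effect of siPADI2 in chromatin and poly(A) RNA differed for 56 with total counts and for 19 at a minimum of 2 CPM.

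Pairs passing in the same direction without shared exonic bases, a smaller set by construction, numbered 14 (siPADI2 poly(A)), 9 (R1810A) and 2 (chromatin), and 5 in chromatin with total counts. With the replicate number as a block, 72 rose and 64 fell after siPADI2, 45 rose and 113 fell in the libraries labelled R1810A, 103 differed between these effects, and 56 and 61 pairs passed in the same direction. Same-numbered libraries deviated together (r 0.206 and 0.759), but the labels do not pair them. No paired analysis was possible in chromatin RNA because its groups share only replicate number 1.

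Leaving out each library in turn gave 54 to 65 higher and 50 to 59 lower after siPADI2, 23 to 31 and 56 to 68 in the libraries labelled R1810A, 19 to 29 and 12 to 21 in chromatin RNA, and 114 to 143 and 35 to 56 in chromatin against poly(A) RNA. It gave 30 to 65 differences between siPADI2 and R1810A, 16 to 63 between chromatin and poly(A), and 37 to 46, 25 to 28 and 1 to 9 pairs in the same direction. A group left with 1 library is assumed to vary like the others in the fit.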
